A study of Rattus norvegicus with 4 samples.

Results

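The serotonin receptor genes described here are Htr1a, Htr1b, Htr2a, Htr2c, Htr3a, Htr4, Htr5a, Htr5b, Htr6 and Htr7, 10 of 15443 named genes on the array. They were chosen by symbol, through the match of each probe's transcript accession to a RefSeq table, and all 10 were found. Of these, 9 have 1 probe, and Htr2c has 2. RNA from cerebellum and from prefrontal cortex, labelled with the dye Cy3, was hybridised to Agilent gene probe arrays that read a single colour and so hold 1 sample each. The rats were male, and 106 of them were scored by forced swimming, where long floating without movement counts as depressive-like behaviour. The depressive groups came from rats with such behaviour and the control groups from rats with average scores, so that the control rats swam too, and tissue was taken 1 week later from 50 rats after their blood had been rinsed out. The comparison asks how the brain of rats that score as depressive differs from that of average rats, within a stock of normal animals.

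The 4 groups, cerebellum of control rats, cerebellum of depressive rats, prefrontal cortex of control rats and prefrontal cortex of depressive rats, had 1 array each, which carried a pool of RNA from 4 rats. The strain and age of the rats, and whether both tissues came from the same rats, are not given in the sources used here. The tissue was a brain slice 1 mm thick, which holds all cell types of the region and, at its edges, of neighbouring structures. A pool averages over its rats, so that no spread between rats was measured, and a difference between depressive and control within a tissue has no replicate check. In such bulk RNA, fewer cells of a type and less RNA per cell cannot be told apart. SE after a single difference is the spread between the 2 spots of a probe, estimated over probes of the same brightness. It is technical and says nothing about the spread between rats.

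Serotonin is released in the forebrain and the cerebellum by neurons whose cell bodies lie in the raphe nuclei of the brainstem, so a cortical or cerebellar slice holds their fibres but hardly any of their RNA. Its receptors are made by the receiving cells. Receptors of the type 1 and type 5 families couple to Gi/o proteins, which lower cyclic AMP and open potassium channels. Type 2 receptors couple to Gq and phospholipase C, type 4, 6 and 7 receptors couple to Gs and raise cyclic AMP, and type 3 receptors are ion channels that open on binding serotonin.

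Promoter sequences of 6 of the 10 genes (Htr1b, Htr2c, Htr5a, Htr5b, Htr6 and Htr7) were found in the RefSeq table of assembly GRCr8. Each spans 300 bases, from 250 before to 50 after the transcript start. Those of Htr2c and Htr6 are shown because their signals lay on opposite sides between the tissues. They are written 5' to 3' on the strand of the gene, and capitals mark a match to one of the motifs searched.
Htr2c promoter, GRCr8 chrX:115452940-115453239, forward strand: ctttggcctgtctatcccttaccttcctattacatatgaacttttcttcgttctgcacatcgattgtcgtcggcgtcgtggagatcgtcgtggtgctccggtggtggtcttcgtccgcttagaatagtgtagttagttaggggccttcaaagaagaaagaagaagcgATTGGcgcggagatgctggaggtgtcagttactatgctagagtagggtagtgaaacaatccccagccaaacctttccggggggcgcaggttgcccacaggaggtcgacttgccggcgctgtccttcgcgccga
Htr6 promoter, GRCr8 chr5:156595098-156595397, reverse strand: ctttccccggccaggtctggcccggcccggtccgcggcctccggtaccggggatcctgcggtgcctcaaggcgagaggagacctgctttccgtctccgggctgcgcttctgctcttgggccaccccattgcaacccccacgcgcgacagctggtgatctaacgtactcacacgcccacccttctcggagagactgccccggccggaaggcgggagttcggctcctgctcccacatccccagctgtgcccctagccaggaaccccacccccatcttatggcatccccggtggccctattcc
The motifs, searched on both strands, were TATAAA, the core promoter box near many transcript starts, then CCAAT, a motif bound by nuclear factor Y, then GGGCGG, a motif bound by Sp1 family factors, and TGACGTCA, the cyclic AMP response element. They occur in 14.2%, 37.5%, 33.1% and 1.83% of 33469 promoters of that length. The Htr2c promoter held 1 match, to CCAAT on the other strand, 83 bases before the start, and the Htr6 promoter held 0 matches. Both were rich in the dinucleotide CG, with 22 in Htr2c and 23 in Htr6 against a median of 7 over all promoters. GC content was 53.7% in Htr2c, 68% in Htr6 and 79.7% in Htr7, which held 44 CG dinucleotides, against a median of 51.7%. A match describes these letters and says nothing about whether a factor binds.

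The arrays lay on 1 slide and had 62976 spots each, and 22201 to 23757 of 30364 probes were well above background. Additive error, the scanner software's estimate of background noise, was 6.99 on the depressive cerebellum array and 4.02 to 4.20 on the others. The labelled tissues were checked against their markers. All 12 cerebellum markers were at least 2-fold higher in cerebellum in both states, and Gabra6, a GABA receptor subunit of granule cells, had signals of 56442 and 104 in cerebellum and prefrontal cortex of control rats. Among 12 genes that mark cerebral cortex 11 were lower in cerebellum, 8 of them by 2-fold or more. Red blood cell genes were higher on both depressive arrays, 6 of 6 by 2-fold or more in each tissue, and their summed signal in units of the array's 75th percentile went from 2.95 to 13.6 in cerebellum and from 5.24 to 21.6 in prefrontal cortex. The part of these genes in the receptor values was not tested.

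Between tissues, most of the measured receptor genes gave a lower signal in the cerebellum, in part only as bounds. In control rats 9 of 10 were well above background in at least one tissue. Of these, 5 (Htr1a, Htr2a, Htr3a, Htr6 and Htr7) were 2-fold or more lower in cerebellum and 0 were 2-fold higher, against 14.1% and 9.82% of the 12917 genes measured in that comparison. In depressive rats 5 of 9 were 2-fold lower (Htr1a, Htr2a, Htr3a, Htr5a and Htr6), against 14.5% of 12678 genes, and 1 (Htr2c) was 2-fold higher, against 9.13%. The median difference of the 9 genes, cerebellum minus prefrontal cortex, was -1.30 on the log2 scale in control and -1.18 in depressive rats, beside -0.01 and -0.06 over all genes. Both medians are themselves bounds, that of Htr7 in control and that of Htr5a in depressive rats. Part of these values are bounds, 3 of 9 in control and 6 of 9 in depressive rats, because the cerebellum array did not show the gene well above background. Over all genes 875 of 12917 and 989 of 12678 were bounds. Such a receptor entered through its prefrontal cortex signal alone, so its value could not lie above 0. Of the receptors 2-fold lower, those well above background in both tissues were Htr3a and Htr6 in control and Htr3a in depressive rats. Bounds were rarer over all genes, so the shares over all genes are no like comparison for these counts. A bound uses the dim probe's own signal or, where higher, the lowest signal well above background, and is no strict minimum. The number of receptor genes well above background was 6 for control cerebellum, 3 for depressive cerebellum, whose array had the highest additive error, and 9 on each prefrontal cortex array.

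**Figure D1:**
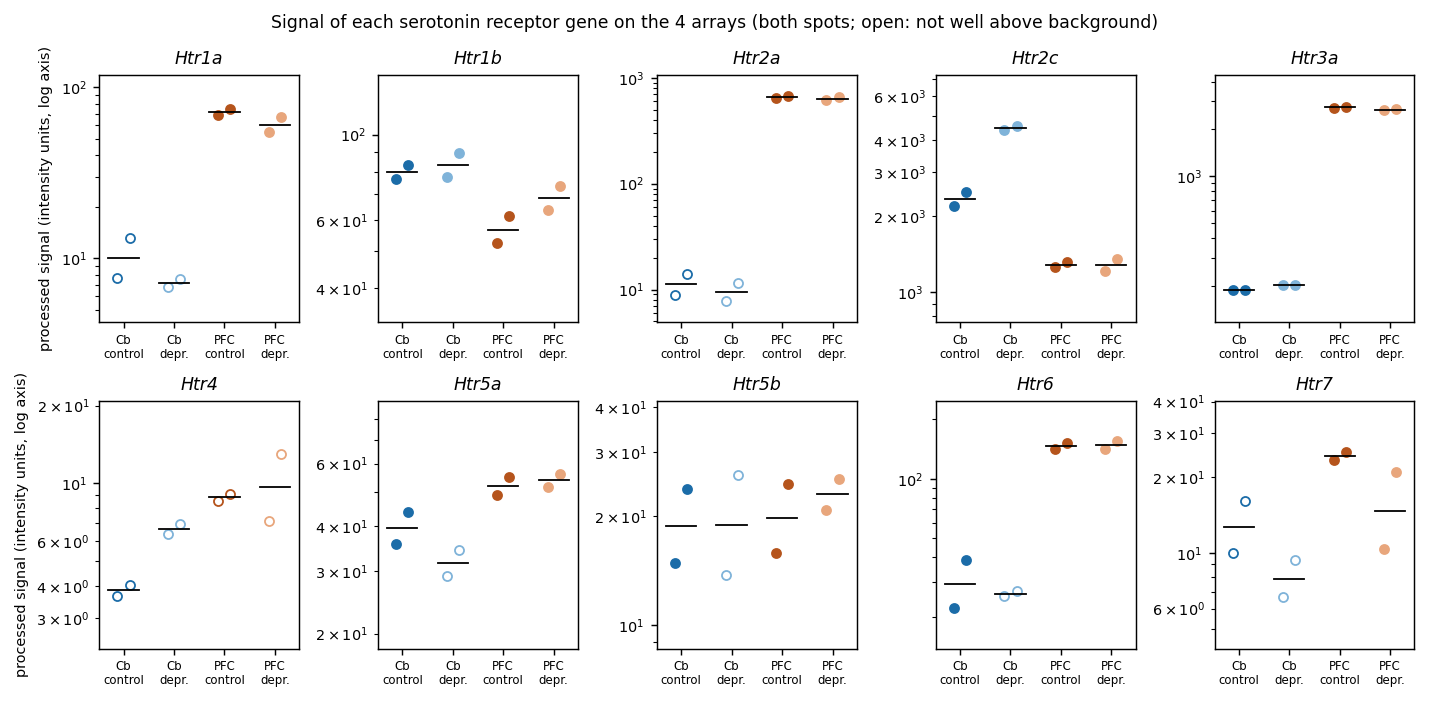
Processed signal (intensity units, log axis, a separate scale per gene) of the 10 receptor genes on the 4 arrays, 2 spots per array, for the brighter probe of Htr2c. Open points are probes not well above background, and a probe counted as well above with at least 1 of its 2 spots flagged so. Htr2a stood at 11.2 and 9.51 in cerebellum and 659.6 and 636 in prefrontal cortex, whereas Htr2c was highest on the depressive cerebellum array at 4474.

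A limma fit (lmFit and eBayes) of tissue and state over 4 arrays tested the genes well above background on all 4, which were 11623 genes and 3 of the 10 receptors, Htr1b, Htr2c and Htr3a. This filter leaves out receptors that were lost in the background of the cerebellum, so the 3 are not a sample of the 10. The 2 states stood as replicates of a tissue, and 1 residual degree of freedom was left. At an adjusted p (Benjamini-Hochberg) under 0.05, Htr3a was lower and Htr2c higher in cerebellum, and Htr1b was not called. Over all genes 38% were called lower and 34.7% higher in cerebellum, so that a call in this fit is common. Median scaling and quantile normalization shifted the tissue difference of all genes upwards, by a median of 0.092 and 0.112 on the log2 scale. A permutation of 2 against 2 arrays cannot give a two-sided p below 0.333.

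Among the Gi/o-coupled receptors, Htr1a, the autoreceptor of raphe neurons and a receptor of cortical pyramidal cells, was detected in prefrontal cortex alone. Its signal was 71.6 in control and 60.3 in depressive prefrontal cortex, and 10.01 and 7.14 in control and depressive cerebellum, both not well above background. Both spots of either cortex array lay above every cerebellum spot, the lowest cortical spot at 54.6 and the highest cerebellar spot at 13.1. Htr1a was 9.23-fold lower in cerebellum in control rats and 5.29-fold lower in depressive rats, both as bounds. In control rats the bound is the measured ratio (SE 0.62 on the log2 scale). After normexp background correction, which models signal and noise together and draws dim probes towards each other, these bounds came to log2 differences of -1.22 and -1.02, against -3.21 and -2.40.

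Htr1b, which acts on nerve endings to hold back transmitter release, was measured on all 4 arrays and gave similar signals in the tissues. Its signal was 79.9 in control and 83.2 in depressive cerebellum, and 56.7 and 68.4 in control and depressive prefrontal cortex. The cerebellum signals were the higher ones before scaling, but the cerebellum arrays were also brighter as a whole, with a 75th percentile of 4020 and 4369.5 against 3116 and 3278. Relative to that percentile the difference was 0.13 (SE 0.21) in control and -0.13 (SE 0.38) in depressive rats on the log2 scale. The limma fit gave -0.00 with a 95% interval of -0.26 to 0.25 and an adjusted p of 0.983. A difference of 2-fold lies outside that interval, but the fit's SE of 0.085 is below both SEs between spots. The interval may therefore be too narrow. The sign turned to 0.09 with median scaling and 0.17 with quantile normalization.

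Htr5a and Htr5b, the type 5 receptors, of which Htr5b is made in rodents and not in humans, were dim on every array. Htr5a had 39.6 in control and 31.6 in depressive cerebellum, the latter not well above background, and 51.9 and 53.9 in control and depressive prefrontal cortex. Its difference between tissues was -0.76 (SE 0.27) in control rats, and in depressive rats it was 2.27-fold lower in cerebellum as a bound. Normexp gave -0.43 and -0.45, and in depressive rats quantile normalization gave -0.88 against -1.18, so that Htr5a was under 2-fold with both. No cerebellum spot reached the lowest cortex spot of 48.9. Htr5b had 18.8 and 18.9 in control and depressive cerebellum and 19.7 and 22.96 in control and depressive prefrontal cortex, with its spots overlapping between all 4 arrays. Its control difference of -0.44 had an SE of 0.58, and no difference between tissues was detectable for Htr5b at this brightness.

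Of the Gq-coupled receptors, Htr2a, the cortical receptor on which classical hallucinogens act, showed the widest gap between tissues among the 10 genes. Its signal was 659.6 in control and 636 in depressive prefrontal cortex. On the cerebellum arrays it was 11.2 and 9.51, not well above background on either. Htr2a was 76.1-fold lower in cerebellum in control rats and 55.8-fold lower in depressive rats, both as bounds. In control rats the bound is the measured ratio (SE 0.58 on the log2 scale). The bounds shrank to log2 differences of -3.51 and -3.49 after normexp, from -6.25 and -5.80.

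Htr2c, a receptor known for its high expression in choroid plexus epithelium, the tissue that secretes cerebrospinal fluid, was the 1 receptor of the 10 that the limma fit called higher in cerebellum. Its brighter probe gave 2341 in control and 4474 in depressive cerebellum, and 1287 and 1282 in control and depressive prefrontal cortex. Every cerebellum spot lay above every cortex spot, the depressive cerebellum array stood apart from the other 3, and the spots of both cortex pools overlapped. The log2 difference between tissues was 0.50 (SE 0.06) in control and 1.39 (SE 0.06) in depressive rats, that is 1.41-fold and 2.62-fold. In the limma fit it was 0.94 (SE 0.25) with an adjusted p of 0.0365, higher in 2 of 2 states. The call was lost with no filter on dim probes (limma adjusted p 0.124). With 1 array left out the fit had no state term, and its residual came only from the tissue that kept 2 arrays. Such fits are therefore given by their difference alone. It was 0.98 without the control and 0.90 without the depressive prefrontal cortex array. Leaving out the control cerebellum array gave 1.35, and leaving out the depressive cerebellum array gave 0.53.

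The second probe of Htr2c gave signals near background. Its signal was 36.8 in control and 36.3 in depressive cerebellum, and 14.1, not well above background, and 20.2 in control and depressive prefrontal cortex. It was higher in cerebellum too, by 1.02 as a bound in control and by 0.43 in depressive rats on the log2 scale. It was not well above background on all 4 arrays and so was not tested. Both probes are assigned to the same RefSeq transcript, and which parts of it they match is not known here.

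The choroid plexus list moved between tissues with Htr2c. All 11 choroid plexus genes were at least 2-fold higher in cerebellum in control and in depressive rats, the medians being 4.67 and 5.996 (log2), and 7 of 7 tested were called higher by limma. Ttr, transthyretin, a plasma and cerebrospinal fluid carrier made in bulk by that epithelium, had signals of 681801 and 706335 in the cerebellum pools and 25617 and 6076 in the prefrontal cortex pools. The list's summed signal was 185.2 times the 75th percentile on either cerebellum array, and 9.66 and 3.43 times it on the control and depressive prefrontal cortex arrays. Of the list, 8 and 7 genes were well above background on the prefrontal cortex arrays. Within the cortex the list's sum was lower in the depressive pool, as was Ttr. Htr2c gave 1287 and 1282 in the control and depressive cortex pools. The part of choroid plexus tissue in the Htr2c values was not tested.

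Htr3a, which forms the channel of type 3 receptors and in the cortex marks a class of inhibitory interneurons, was lower in cerebellum. Its signal was 187 in control and 201 in depressive cerebellum, and 2760.2 and 2652 in control and depressive prefrontal cortex. Spots of a probe agreed closely, and every cortex spot was above 2630 while every cerebellum spot was below 202. The difference was -4.25 (SE 0.09) in control and -4.14 (SE 0.14) in depressive rats on the log2 scale, 19.0-fold and 17.6-fold lower. The limma fit gave -4.19 (SE 0.06) with an adjusted p of 0.000181, lower in 2 of 2 states.

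Of 11 markers of the interneuron class that holds Htr3a, 4 were below 0 in control and 3 in depressive rats between cerebellum and prefrontal cortex, with a median of 0.75 and 0.76. By limma 2 of the 9 tested were lower and 5 higher in cerebellum. The list's neuropeptide genes, Cck and Vip, lay on the side of Htr3a, while most of the list did not. Cck, cholecystokinin, had 2156 and 1248 in the cerebellum pools against 491055 and 465327 in cortex. Vip, vasoactive intestinal peptide, had 43.9 and 29.5, the latter not well above background, against 12907 and 12499. Calb2, calretinin, had the opposite direction, at 5.49 and 5.97 higher in cerebellum on the log2 scale. Limma also called Reln (2.78), Cnr1 (1.20), Gad1 (1.00) and Sncg (0.75) higher in cerebellum, and Lamp5 (-1.18) lower. The part of these cells in the Htr3a difference was not tested.

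Of the Gs-coupled receptors, Htr6, a receptor of forebrain neurons, was lower in cerebellum. Its signal was 29.3 in control and 26.2 in depressive cerebellum, the latter not well above background, and 146 and 148 in control and depressive prefrontal cortex. The lowest cortex spot, 141, was above the highest cerebellum spot, 38.8. The difference was -2.69 (SE 0.30) in control rats, 6.44-fold lower, and as a bound 7.496-fold lower in depressive rats. Normexp left log2 differences of -1.52 and -1.60.

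Htr7, a receptor of thalamus, hypothalamus and limbic cortex, was near the limit of detection. It had 24.3 in control and 14.7 in depressive prefrontal cortex, with 1 of 2 spots well above background on the latter, and 12.7 and 7.88, not well above background, in control and depressive cerebellum. It was 2.47-fold lower in cerebellum in control and 1.29-fold lower in depressive rats, both as bounds. The control value went from -1.30 to -0.58 on the log2 scale, under 2-fold, after normexp, and quantile normalization and the deposited value table gave no bound above 1-fold in depressive rats. Htr4, which couples to Gs as well, had 3.85 and 6.67 in the cerebellum pools and 8.83 and 9.68 in the prefrontal cortex pools. It was well above background on 0 of 4 arrays, so no difference can be given for Htr4.

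**Figure D2:**
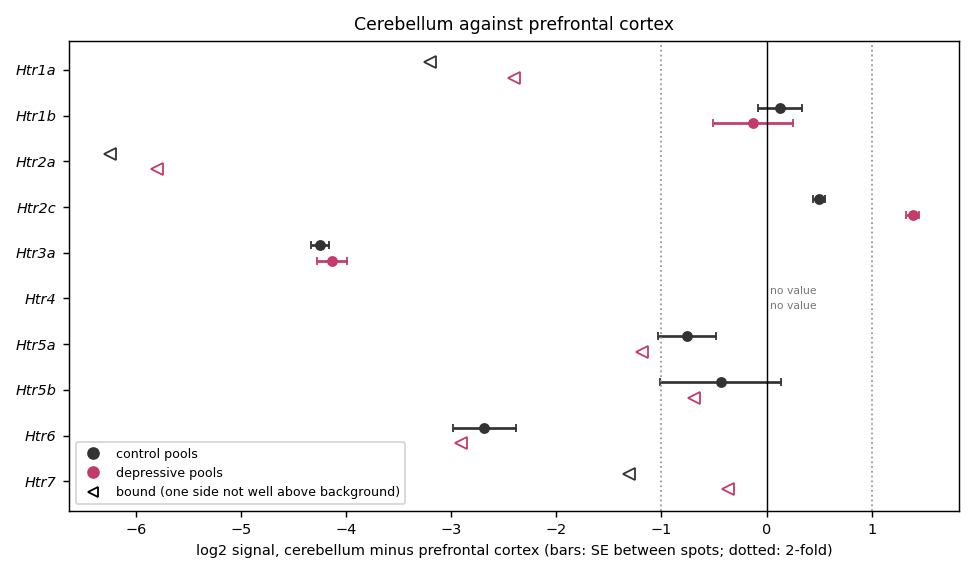
Difference of the log2 signal, cerebellum minus prefrontal cortex, for the 10 receptor genes in control and depressive pools. Points carry the SE between spots, open triangles are bounds where the cerebellum array was not well above background, and dotted lines mark 2-fold. Htr2a lies farthest left at -6.25 and -5.80, Htr3a at -4.25 and -4.14, and Htr2c lies right of 0 at 0.50 and 1.39.

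The other serotonin receptor genes on the array gave a similar spread. Htr1d, the close relative of Htr1b, had 11.8 and 20.6, not well above background, in the cerebellum pools and 56.8 and 71.7 in the cortex pools. As bounds, Htr1d was 6.22-fold and 4.63-fold lower in cerebellum. Htr1f, a further Gi/o-coupled receptor, was 4.25-fold and 3.31-fold lower, again as bounds. Htr2b, best known from heart valves and blood vessels, was 0.41 (SE 0.14) and 0.48 (SE 0.19) higher in cerebellum on the log2 scale and was called higher by limma (0.44, adjusted p 0.00507). Htr3b, the partner subunit of Htr3a, was well above background on 0 arrays.

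Genes that make, store, take up and break down serotonin differed between tissues in both directions, 4 higher and 6 lower of 10 tested by limma, with a median of -0.29 beside -0.02 over all genes tested. Tph1, the tryptophan hydroxylase of the pineal gland and gut, had 308 and 607 in the control and depressive cerebellum pools and 20.3 and 27.2 in the cortex pools, and was called 14.0-fold higher in cerebellum (log2 3.81, SE 0.15, limma adjusted p 0.000552). Its second probe gave 65.1 and 122 in cerebellum and 8.68 and 12.4, not well above background, in cortex. Tph2, the hydroxylase of raphe neurons, went the other way, with 44.0 and 44.1 in cerebellum and 191 and 182 in cortex (log2 -2.47, SE 0.05, limma adjusted p 0.000244). The fit's SE for Tph2 is below the SEs between spots given for it further on, so its precision may be overstated. Slc6a4, the serotonin transporter of raphe neurons, had 16.2 and 16.2 in cerebellum and 12.1 and 13.0 in cortex. The control cerebellum array alone showed it well above background. Fev, a transcription factor that marks serotonin neurons, was well above background on 0 arrays.

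The remaining genes of this group differed by less than 2-fold between tissues. Maob, a monoamine oxidase of glia and serotonin neurons, was lower in cerebellum (log2 -0.77, SE 0.05, limma adjusted p 0.0013), as were Maoa (-0.29) and Ddc (-0.28), the decarboxylase that makes serotonin and dopamine. The vesicular transporter Slc18a2 was higher (0.43, SE 0.05, limma adjusted p 0.00583). Gch1 (0.43 and 0.35 in control and depressive rats) and Qdpr (0.38 and 0.35) lay above 0, and Pts (-0.39 and -0.32) and Spr (-0.70 and -0.69) below it. These 4 genes make or recycle tetrahydrobiopterin, the cofactor of the hydroxylases.

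Because Tph1 is abundant in the pineal gland, pineal genes were looked up after its values had been seen. Asmt, the last enzyme of melatonin synthesis, had 249 and 308 in the cerebellum pools and 69.4 and 71.2 in cortex. Aanat, the enzyme before it, had 121 and 131 in cerebellum and 121 and 139.8 in cortex. Crx, a transcription factor of pineal cells and photoreceptors, was well above background on 0 arrays. Of 7 pineal genes, 5 were well above background on either cerebellum array, and 5 and 6 on the control and depressive prefrontal cortex arrays. By limma 3 of the 5 tested were higher in cerebellum, 1 was lower and 1 was not called. The list's summed signal was 0.33 and 0.37 times the 75th percentile on the cerebellum arrays and 0.29 and 0.30 times it on the cortex arrays. The part of pineal tissue in the Tph1 value was not tested.

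Downstream of the receptors, the limma fit called more genes lower than higher in cerebellum. Of 9 Gi/o subunit and potassium channel genes 6 were lower and 3 higher, with a median of -0.41. Gnaz, a Gi-type alpha subunit of neurons, had 87.8 and 77.9 in cerebellum against 156 and 162 in cortex (log2 -1.33, SE 0.09, limma adjusted p 0.00147). Kcnj5, a subunit of the G protein-gated potassium channel, had 166 and 206 against 331 and 343 (-1.26), and Kcnj9, another subunit, differed by -0.91. On the Gq side 4 of 6 were lower and 2 higher, with a median of -0.51. Plcb1, the phospholipase C of cortex and hippocampus, had 1496 and 1578 against 6692 and 7212 (log2 -2.57, SE 0.05, limma adjusted p 0.000245). Plcb4, the phospholipase C of Purkinje cells, was higher in cerebellum (1.79, SE 0.08), as was Plcb3 (1.17, SE 0.13).

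On the Gs side 5 of 8 tested were lower, 2 higher and 1 not called, with a median of -0.47. The adenylyl cyclases that gave the largest differences were Adcy2 (-2.57, SE 0.06), Adcy5 (-1.99, SE 0.10) and Adcy8 (1.78, SE 0.06), the last of them higher in cerebellum. Of 9 receptor partners and editing enzymes 7 were lower, 1 higher and 1 not called, with a median of -0.55. S100a10, also called p11, which binds type 1B and type 4 receptors and brings them to the cell surface, had 1399 and 1795 in cerebellum and 4482 and 4863 in cortex (log2 -1.95, SE 0.07, limma adjusted p 0.000514). Dlg4, the postsynaptic scaffold that holds type 2A and 2C receptors, had 211 and 215 against 628 and 523 (-1.82, SE 0.08). Arrb1, an arrestin that ends receptor signalling, differed by -0.84 (SE 0.05). With 38% and 34.7% of all genes called lower and higher, these counts describe the lists and do not set them apart.

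The genes whose pattern over the 4 arrays lay nearest that of Htr3a, by Euclidean distance of log2 values centred per gene among 11622 genes, were Stx1a (0.034), Chrdl1 (0.056) and Ephb6 (0.066). Stx1a, syntaxin of the presynaptic membrane, had 12500 and 13061 in cerebellum and 184943 and 175634 in cortex. Nearest to Htr2c were Kdf1 (0.093), RT1-CE15 (0.099) and Fancd2 (0.15). Kdf1 had 40.9 and 84.6 in cerebellum and 23.8 and 22.6 in cortex, so that its depressive cerebellum array also stood apart. A distance over 4 arrays is a description, and many genes share such a pattern by the design alone.

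Between depressive and control pools, 0 of the measured receptor genes differed by 2-fold or more in either tissue. In cerebellum 6 of 10 were measured, and their median was -0.09 on the log2 scale beside -0.03 over all genes, and 1.1% of 12680 genes differed by 2-fold. In prefrontal cortex 9 of 10 were measured, with a median of -0.08 beside -0.01, and 0.787% of 12572 genes did. The limma fit over both tissues called 0 of the 3 receptors tested (adjusted p 0.715 to 0.836), and also 0% of all 11623 genes at an adjusted p under 0.05. An unadjusted p under 0.05 was reached by 904 genes, none of them one of the 3 receptors, and the smallest adjusted p was 0.208. The 95% intervals for depressive minus control were -0.25 to 0.097 for Htr3a and -0.19 to 0.32 for Htr1b on the log2 scale, which leave out a 2-fold difference, while that for Htr2c, given below, does not. The fit has 1 residual degree of freedom, takes the tissues as replicates and measures no spread between rats. Its SE for Htr1b, 0.085, is below the SE between spots, 0.39 in cerebellum and 0.19 in prefrontal cortex. For Htr3a the fit's SE, 0.058, is below its SE between spots in cerebellum, 0.16. The intervals for Htr1b and Htr3a may therefore be too narrow.

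In cerebellum the largest difference among the receptors was that of Htr2c, at 2341 in the control and 4474 in the depressive pool on its brighter probe. This is 0.81 on the log2 scale (SE 0.05), 1.76-fold higher in the depressive pool, with no overlap of spots (2193 to 2500 against 4382 to 4568). The dimmer probe had spots at 31.7 and 42.8 in the control and 30.2 and 43.8 in the depressive pool, a difference of -0.14, so that the probes disagree. The mean over both probes gave 0.34. In prefrontal cortex the brighter probe differed by -0.08 (SE 0.06). Over both tissues the limma fit gave 0.37 with a 95% interval of -0.368 to 1.103 and an adjusted p of 0.715.

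Other genes named here differed between the cerebellum pools by a like amount. Of 11 choroid plexus genes 10 were higher in the depressive cerebellum pool, with a median of 0.59, among them Kcnj13, a potassium channel of that epithelium, at 1.76-fold and Sostdc1 at 1.72-fold, while the brightest of them, Ttr, differed by -0.07 (SE 0.06). The list's sum, which Ttr dominates, was 185.2 times the 75th percentile on both arrays. In prefrontal cortex 5 of 8 choroid plexus genes were lower in the depressive pool, with a median of -0.61. Tph1 was 1.81-fold higher in the depressive cerebellum pool (0.86, SE 0.11), from 308 to 607, and its second probe went from 65.1 to 122. In the limma fit Tph1 had an adjusted p of 0.641 for the state. The part of choroid plexus tissue in the Htr2c and Tph1 values was not tested.

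**Figure D3:**
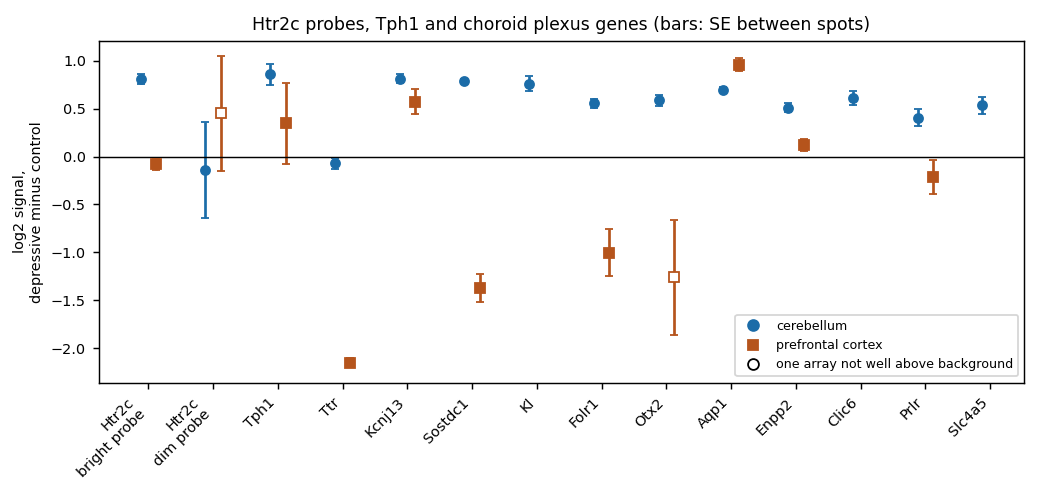
Difference of the log2 signal, depressive minus control, in cerebellum (circles) and prefrontal cortex (squares) for both Htr2c probes, Tph1 and the choroid plexus genes, with the SE between spots. Open symbols have a single array well above background, and genes dim on both arrays are not drawn. The brighter Htr2c probe lies at 0.81 in cerebellum and -0.08 in prefrontal cortex, the dimmer one at -0.14 in cerebellum.

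Of the remaining receptors, Htr1b and Htr3a were well above background in both cerebellum pools. Htr1b differed by -0.06 (SE 0.39) and Htr3a by -0.02 (SE 0.16). Htr5a (-0.44), Htr5b (-0.11) and Htr6 (-0.28) were well above background in the control pool alone, so their values count as bounds. Their SE between spots, 0.51, 0.71 and 0.58, exceeded each of these differences, and the depressive array had the higher additive error. Htr1a, Htr2a, Htr4 and Htr7 were below that level in both pools.

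In prefrontal cortex 7 of the 9 measured receptors lay below 0 and 2 above it, beside 6620 and 5923 of 12572 genes. The largest difference was that of Htr7, 24.3 in the control and 14.7 in the depressive pool, or -0.80 (SE 0.54), with spots at 23.4 and 25.2 against 10.3 and 20.9. Normexp reduced it to -0.24. Htr1a differed by -0.32 (SE 0.19), with spots at 69.1 and 74.1 in the control and 54.6 and 66.7 in the depressive pool. Htr2a (-0.13, SE 0.08) and Htr3a (-0.13, SE 0.06) lay slightly below 0. Htr1b lay at 0.20 (SE 0.19) and Htr5b at 0.15 (SE 0.47), and Htr5a (-0.02) and Htr6 (-0.06) near 0. No spread between rats is known, so none of these values can be set against it.

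**Figure D4:**
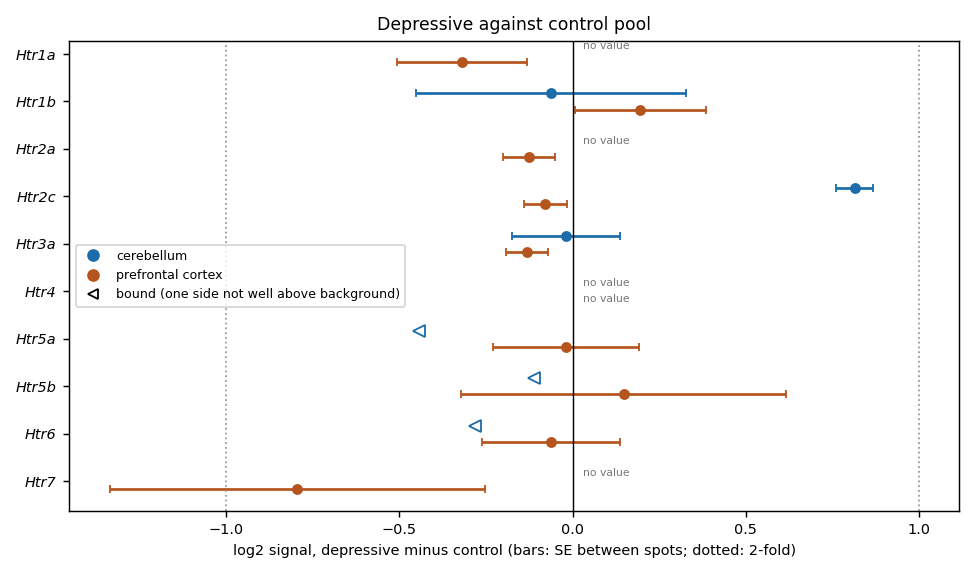
Difference of the log2 signal, depressive minus control pool, for the 10 receptor genes in cerebellum and prefrontal cortex. Points carry the SE between spots, open triangles are bounds, and "no value" marks a gene that neither array of a tissue showed well above background. All points lie within the dotted lines at 2-fold, with Htr2c in cerebellum at 0.81 and Htr7 in prefrontal cortex at -0.80 the farthest out.

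Of the genes around the receptors 0 were called between states by limma in any group. Among the 10 tested genes that make and handle serotonin the median was 0.06, among the Gi/o genes -0.03, on the Gq side -0.02, on the Gs side -0.09 and among receptor partners and editing enzymes -0.08, beside -0.02 over all genes tested. Within a tissue 0 genes of these groups differed by 2-fold or more. Tph2 lay at -0.12 (SE 0.56) in cerebellum and -0.14 (SE 0.20) in prefrontal cortex, and Htr1f at 0.38 (SE 0.32) and Htr1d at 0.26 (SE 0.19) in prefrontal cortex.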

How the data were processed

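The deposited scanner files give 1 processed intensity per spot, from which the authors' software had subtracted background, and spot flags (Agilent Feature Extraction, version 10.7.1.1, protocol GE1_107_Sep09, per the file headers). The headers name build rn4. RNA of 4 rats was pooled and 400 ng labelled, per the labels' protocols, from slices 3.2 to 4.2 mm before (prefrontal cortex) and 9.8 to 10.8 mm behind (cerebellum) the bregma. The deposited table of intensity values lists 23207 probes, scaled per array in a way not given in the sources used here.

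Groups were taken from the titles. The description of each depressive sample names the other tissue. Value-table columns of 2 samples, depressive cerebellum and control prefrontal cortex, matched the scanner file linked to the other of the pair (r of 0.99996 or more, against 0.933 with their own), and groups follow the table. This was decided with the files in view. The names of those files give the same reading.

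Control and outlier spots were left out, the log2 intensities of a probe's spots were averaged and log2 of the array's 75th percentile was subtracted. Probes were named through RefSeq accessions (18355 of 30364), and the brightest probe stood for a gene. At least 50% of a probe's spots had to carry the flag for it to count as well above background. A bound sets the dimmer side at the higher of its own signal and the lowest probe well above background. Where its own signal is the higher, the bound is the measured ratio and no strict minimum. Differences were tested with limma 3.58.1 (R 4.3.3) and Benjamini-Hochberg adjustment, and the script was tested on simulated data. The number of arrays limits the precision. Alternatives were normexp (offset 50, on median signals, as the files hold no mean signals), other scalings, no filter, the value table, the mean over probes, each array left out and the files as linked.

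All 10 receptors are named, as are measured receptors and serotonin-handling genes outside the 10, up to 3 genes with the largest tissue difference of each other group, and the 3 nearest genes of 2 receptors. Members and lists were chosen with earlier results of these data known. Marker genes were named as examples after their values were seen.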

Additional observations from a re-analysis of the deposited data

Results flagged for a closer look

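Htr2c and Htr1b differed between depressive and control pools in opposite directions in the tissues. For Htr2c, depressive minus control was 0.81 (SE 0.05 between spots) in cerebellum and -0.08 (SE 0.06) in prefrontal cortex on the log2 scale, a gap of 0.892. On the dimmer Htr2c probe the cerebellum value was -0.14. For Htr1b the values were -0.06 (SE 0.39) and 0.20 (SE 0.19), a gap of -0.258, with each value no larger than about its SE. With 1 pool per group neither gap was tested.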

How the results depend on the processing

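Each group is 1 pool of 4 rats, so differences between depressive and control describe these pools, and the limma fit has 1 residual degree of freedom. No paired analysis was possible by replicate number because the labels give none, but the fit of tissue has state as a block. Without that block the same number of receptors, 2, was called between tissues. In the matching fit of the state the term left out was tissue. The difference between tissues then fell into the residual, so its 0 calls are no check on the states. Dim probes limit most receptors: 3 of 10 were well above background on all 4 arrays. The counts depend on which scanner file belongs to which sample. With scanner files taken as linked, limma called 0 receptors between tissues and 2 between states (Htr3a 4.19 and Htr2c -0.94). Of the receptors, 5 in cerebellum and 6 in prefrontal cortex differed by 2-fold between states, since those files compare tissues. Over all genes, 3090 of 12917 in cerebellum and 2991 of 12678 in prefrontal cortex did so, and limma called 8458 of 11623 between states. Members 2-fold lower in cerebellum were then 0 in control and 0 in depressive rats, the tissue differences of the fit were 0.0747 for Htr3a and -0.368 for Htr2c, and in control and depressive rats Htr3a lay at 0.0185 and 0.131 and Htr6 at 0.28 and 0.0614. In depressive rats Htr1a lay at 0.32, Htr2a at 0.126 and Htr5a at 0.0184.

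Under the other alternatives 0 of the results changed direction while called. With no filter on dim probes, limma called 7017 of all 15443 genes between tissues. Receptors not well above background in cerebellum were then tested too. The number of receptors called between tissues, 2 of 3, became 7 of 10 with no filter on dim probes. It became 1 of 2 with the dimmer Htr2c probe, an alternative chosen after seeing the data, since that probe was not tested. Fits of tissue with an array left out had no state term and 1 array in a tissue, so only their differences are given. They were 0.53 to 1.35 for Htr2c, -4.26 to -4.13 for Htr3a and -0.10 to 0.10 for Htr1b. The number called was 2 with normexp, median scaling, quantile normalization, the value table, the mean over probes and without state in the fit. Htr3a kept an adjusted p of 0.0103 or less in limma under each of these. The number of members 2-fold lower in cerebellum was 4 or 5 in both states. Between states 0 were at 2-fold, and 0 were called in the fits that kept tissue as a term. Fits of the state with an array left out had no tissue term. The tissue difference entered their residual, so they are no check on the state result. Normexp shrank the differences of dim probes, Htr6 in control rats from -2.69 to -1.52, and took Htr7 in control and Htr5a in depressive rats under 2-fold. Over all genes, normexp called 5 between states against 0, and took the genes at 2-fold between states from 140 to 30 in cerebellum and from 99 to 13 in prefrontal cortex. In cerebellum the value table gave 72.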
